A study of Mus musculus with 4 samples.

Results

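The nuclear genes for the subunits of the respiratory chain and of the mitochondrial ATP synthase were followed in mRNA-seq of mouse embryonic stem cells (mESCs) with and without an intact Bmal1 gene, the transcription factor at the core of the molecular clock. A gene was a member when its Ensembl identifier in the deposited table belonged to 1 of 59 symbols listed for complexes I to V, with the ATP synthase genes under their older names such as Atp5b. The 59 symbols matched 60 of the 37310 identifiers in the table. A second identifier named Ndufb8, ENSMUSG00000091471, overlaps the first Ndufb8 gene and was at 0 in every library, so 59 genes with values remained. Of these, 30 belong to complex I, 4 to complex II, 7 to complex III with its electron carrier cytochrome c, 9 to complex IV and 9 to the ATP synthase (complex V). All 59 passed the filter on low values, a mean normalized value of at least 10 over the 4 libraries, which left 14510 genes.

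The JM8 mESC line, of C57BL6/N origin, was grown without feeder cells on gelatin in 2i + LIF medium, which holds the Mek inhibitor PD0325901 (1 µM) and the Gsk3 inhibitor CHIR99021 (3 µM). There were 2 libraries labelled wild-type and 2 labelled Bmal1-/-. The Bmal1-/- cells are 1 clone in which CRISPR/Cas9 left a deletion in exon 5 of one allele and an insertion in that of the other, each shifting the reading frame. The study describes no Bmal1 protein detectable by Western blot in this clone, while its methods speak of a shorter form of the protein. Each label stands for 1 line, so any other difference between the parental line and the clone cannot be told apart from the genotype. A value is a gene's reads after the authors rescaled each library. Log2 changes of single genes carry their limma standard error (SE). Fold changes are differences of log2(value + 1), Bmal1-/- against wild-type, and were tested with limma on all 14510 genes with Benjamini-Hochberg adjustment, calling a gene at an adjusted p-value under 0.05.

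Depth ranged from 21504265 to 23329034 reads on genes, and a floor of 3 reads was worth 2.82 to 3.19 in normalized value. The targeted gene, listed as Arntl on chromosome 7, had values of 678 and 733 in the wild-type libraries and of 556 and 590 in those labelled Bmal1-/-, a log2 change of -0.30 ± 0.07 (SE, limma adjusted p = 0.0011). Reads on this gene were thus still present, whereas the study did not detect Bmal1 mRNA in this clone by RT-qPCR. RT-qPCR reads a short amplicon and the values here hold reads over the whole gene, so these are unlike measures. The reason for the difference was not tested, and libraries are named by their labels. All 10 naive embryonic stem cell markers examined were expressed in every library, with a summed value of 116840 to 119675 in wild-type and 125481 to 127411 in Bmal1-/-, 4 of them higher and 5 lower. The higher ones were Tfcp2l1 (log2 change 0.40), Tbx3 (0.36), Nanog (0.25) and Klf4 (0.16). The lower ones were Dppa3 (-0.95), Sox2 (-0.17), Zfp42 (-0.14), Esrrb (-0.14) and Pou5f1 (-0.13), and Klf2 (-0.04) was not called. The 7 fibroblast or feeder markers summed to 69.5 and 75.4 in wild-type and to 108 and 97.3 in Bmal1-/-. Of these, 2 passed the filter: Thy1 was higher in Bmal1-/- (log2 change 0.59, limma adjusted p = 0.026), and Col1a1 (0.39) was not called. The other 5 had 3 reads or fewer in every library, and of them Dcn and Lum were at 0 in all libraries. The 12 markers of primed or differentiating cells summed to 677 and 662 in wild-type and to 538 and 489 in Bmal1-/-. Of the 7 that passed the filter, 2 were higher, Sox17 (log2 change 1.27) and Gata4 (0.55), and 3 were lower, Pax6 (-1.71), Eomes (-0.83) and Cdx2 (-0.74). The part of these markers in the results was not tested.

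The respiratory chain passes electrons from NADH (complex I) or succinate (complex II) through ubiquinone, complex III and cytochrome c to oxygen at complex IV, and the proton gradient that complexes I, III and IV build drives ATP synthase. Most subunits are encoded in the nucleus and imported, while a small set is encoded by mitochondrial DNA and made inside the organelle. Naive mESCs use respiration as well as glycolysis, and primed pluripotent cells lean more on glycolysis.

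Most nuclear subunit genes had lower values in the libraries labelled Bmal1-/-, each by a modest amount. Of the 59 members, 54 were lower with an adjusted p-value under 0.05, where 28.6% of all genes tested were lower by the same rule. That share was higher among strongly expressed genes, at 49.3% in the decile with the highest values, which held 23 members. No member was higher by this rule, which 24.0% of all genes met, and none was higher with an unadjusted p-value under 0.05 either. edgeR and DESeq2 on the whole reads also called 0 members higher. By limma, no member passed the study's rule of an adjusted p-value under 0.05 and more than 2-fold, which 7.21% of all genes passed. The study applied this rule with DESeq2, so that share is not its own. Here edgeR and DESeq2 on the whole reads gave 0 members by that rule too. In 56 of the 59 members both Bmal1-/- libraries lay below both wild-type libraries, a pattern that 41.4% of all genes showed. The members' median log2 fold change was -0.30, and the median over all genes tested was -0.03. Bulk values cannot tell less of a mRNA per cell from fewer cells that make it.

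Summed over the 59 members, the values came to 285597 and 289200 in wild-type. In the Bmal1-/- libraries the sums were 244710 and 240368, which was 15.6% lower. The members held 1.25% and 1.27% of the reads on genes in wild-type and 1.12% and 1.09% in Bmal1-/-. The 4 libraries were therefore separated without overlap, and the gap was larger than the difference between replicates of either label. The median member stood at 81.1% of its wild-type value, the lowest at 71.0% and the highest at 101%, and 27 members were at least 20% lower. Replicate 2 of Bmal1-/- lay below replicate 1 in 42 members, and the members' median ratio to the wild-type mean was -0.27 in replicate 1 and -0.32 in replicate 2 on the log2 scale.

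**Figure D1:**
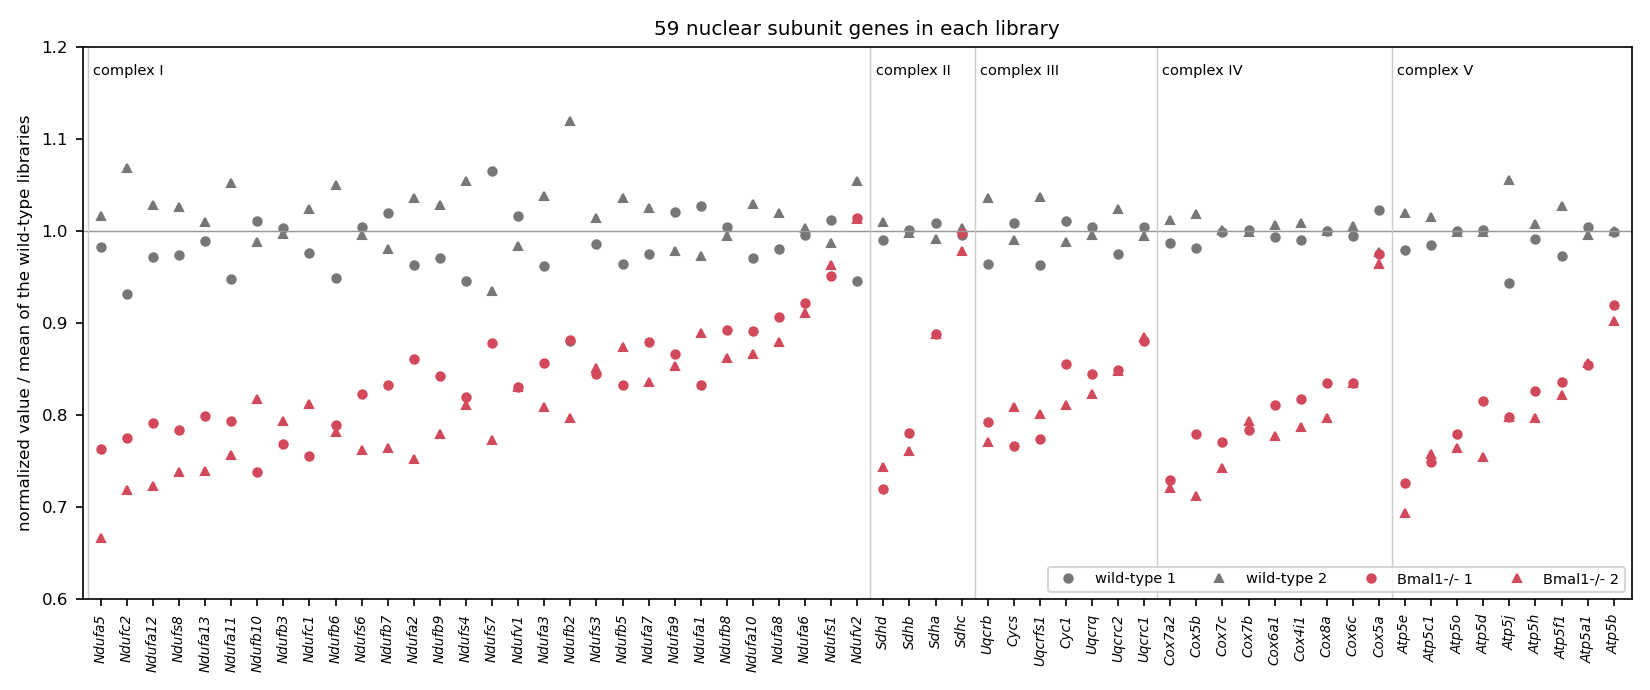
Normalized value of each of the 59 members in each library, divided by the mean of the 2 wild-type libraries (vertical axis, linear), with genes ordered by fold change inside each complex and Cycs shown with complex III. Grey marks wild-type and red Bmal1-/-, circles replicate 1 and triangles replicate 2; in 56 of the 59 genes both red points lie below both grey points.

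Complex I takes electrons from NADH and pumps protons. Of its 30 members, 27 were lower and 0 higher, with a median log2 fold change of -0.28 and a range from -0.49 to 0.02. By part of the enzyme, the N module, which binds and oxidizes NADH, had 6 of 8 members lower (median -0.28). The Q module, which hands electrons to ubiquinone, had 6 of 6 lower (median -0.26). The P module, the membrane arm that pumps protons, had 15 of 16 lower (median -0.31). The summed value of complex I was 56789 and 58552 in wild-type and 49112 and 47684 in Bmal1-/-, which was 16.1% lower.

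Ndufa5, an accessory subunit of the Q module (ENSMUSG00000023089, chromosome 6, 24468666 to 24478013 in mm9), stood at 912 and 943 in wild-type and at 708 and 619 in Bmal1-/-. This log2 change of -0.49 ± 0.07 (SE, limma adjusted p = 5.8e-06) was the largest fall of complex I. Ndufc2, an accessory subunit of the membrane arm (chromosome 7, 104548513 to 104556312), had values of 1545 and 1772 in wild-type and of 1286 and 1193 in Bmal1-/-, a log2 change of -0.42 ± 0.06 (SE, limma adjusted p = 1.0e-05). The groups did not overlap for either gene, although the wild-type libraries of Ndufc2 lay further apart than those of Ndufa5. Ndufa12, an accessory subunit near the NADH-oxidizing end (chromosome 10, 93661700 to 93684188), stood at 1464 and 1549 in wild-type and at 1193 and 1089 in Bmal1-/-, a log2 change of -0.40 ± 0.06 (SE, limma adjusted p = 6.7e-06). Of its transcript, 44.3% matched 1 other place in the genome at 98% identity or more, so reads may be shared with that copy.

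Ndufs8, a core subunit that carries iron-sulphur clusters of the Q module (chromosome 19, 3908870 to 3912717), had values of 1807 and 1905 in wild-type and of 1454 and 1370 in Bmal1-/-. The log2 change was -0.39 ± 0.05 (SE, limma adjusted p = 2.8e-06). Ndufa13, also known as Grim19, an accessory subunit of the membrane arm (chromosome 8, 72418087 to 72426457), had values of 3495 and 3568 in wild-type and of 2825 and 2614 in Bmal1-/-, a log2 change of -0.38 ± 0.05 (SE, limma adjusted p = 1.0e-06). Both genes were lower in each Bmal1-/- library than in either wild-type library.

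The other called members of complex I fell by less. Of the core subunits, Ndufs7 had a log2 fold change of -0.28, Ndufv1, which binds NADH, of -0.27, and Ndufs3 of -0.24. Among accessory subunits of the membrane arm the log2 fold changes ran from -0.36 for Ndufa11, Ndufb10 and Ndufb3 to -0.16 for Ndufa8. Ndufa11 went from 1794 and 1992 in wild-type to 1503 and 1433 in Bmal1-/-, and Ndufb10 from 1715 and 1676 to 1251 and 1387. The smallest called fall was that of Ndufa6, with values of 1674 and 1687 in wild-type and of 1550 and 1531 in Bmal1-/-, a log2 fold change of -0.13 (adjusted p = 0.038, limma). The signs of Ndufa6 and Ndufa8 turned, to 0.0263 and 0.00953, when a trend over exon length was taken out.

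The 3 members of complex I that were not called were Ndufv2, Ndufs1 and Ndufb2. Ndufv2, a core subunit with an iron-sulphur cluster next to the NADH site (chromosome 17, 66428135 to 66450899), had the highest mean value of complex I, 3945. It stood at 3706 and 4131 in wild-type and at 3975 and 3970 in Bmal1-/-, so the Bmal1-/- libraries lay between the wild-type ones. The log2 change was 0.02 ± 0.05 (SE, limma adjusted p = 0.73), and it was -0.0566 without wild-type replicate 1. Ndufs1, the largest core subunit, went from 3049 and 2973 to 2863 and 2900, a log2 change of -0.06 ± 0.04 (SE, limma adjusted p = 0.24). Ndufb2, a small accessory subunit, was the lowest of all members at 76.9 and 97.7 in wild-type and 77.0 and 69.6 in Bmal1-/-, with a log2 fold change of -0.24, a standard error of 0.17 and an adjusted p of 0.25 (limma). The fold change of Ndufb2 was thus near the members' median, with a standard error larger than that of the members given in full. Ndufs1 and Ndufb2 are named because they complete the uncalled members, and were chosen after their values were seen.

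Complex II, succinate dehydrogenase, links the tricarboxylic acid cycle to ubiquinone and has no subunit encoded by mitochondrial DNA. Its 4 members divided, with 3 lower and 1 not called. Sdhd, a membrane anchor (ENSMUSG00000000171, chromosome 9, 50404443 to 50411954), had values of 4625 and 4715 in wild-type and of 3364 and 3474 in Bmal1-/-. The log2 change was -0.45 ± 0.04 (SE, limma adjusted p = 2.3e-08). Sdhb, the iron-sulphur subunit (chromosome 4, 140517118 to 140535108), went from 2743 and 2734 to 2137 and 2086, a log2 change of -0.38 ± 0.05 (SE, limma adjusted p = 7.9e-07). In both genes the replicates of a label lay close together and far from those of the other label.

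Sdha, the flavoprotein that oxidizes succinate and the member of complex II with the highest value, had 8732 and 8587 in wild-type and 7688 and 7697 in Bmal1-/-, a log2 change of -0.17 ± 0.04 (SE, limma adjusted p = 7.8e-04). Sdhc, the other membrane anchor (chromosome 1, 173057296 to 173080734), had 2135 and 2151 in wild-type and 2139 and 2098 in Bmal1-/-, values that overlapped. The log2 change was -0.02 ± 0.05 (SE, limma adjusted p = 0.78), and its sign turned under 6 of the 18 alternative settings. Sdhc and Sdhd, which together anchor the enzyme in the membrane, thus stood at 98.8% and 73.2% of their wild-type values.

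Complex III passes electrons from ubiquinol to cytochrome c. All 7 members were lower, with a median log2 fold change of -0.26 and a range from -0.35 to -0.18, and no member's groups overlapped. Uqcrb, a small subunit at the ubiquinone site (ENSMUSG00000021520, chromosome 13, 67001553 to 67006314), had values of 2990 and 3213 in wild-type and of 2459 and 2391 in Bmal1-/-, a log2 change of -0.35 ± 0.05 (SE, limma adjusted p = 2.8e-06). Of its transcript, 90.5% matched 1 other place in the genome, so its value may share reads with a copy. Uqcrc1, a core protein with the highest value of the complex (chromosome 9, 108838661 to 108851685), had 8318 and 8239 in wild-type and 7292 and 7325 in Bmal1-/-, a log2 change of -0.18 ± 0.04 (SE, limma adjusted p = 4.9e-04). With the trend over exon length taken out, the log2 fold change of Uqcrc1 was -0.04 and was not called.

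Among the redox carriers, Uqcrfs1, the Rieske iron-sulphur protein, went from 2740 and 2950 to 2203 and 2280, and Cyc1, cytochrome c1, from 6304 and 6161 to 5335 and 5058. Their log2 fold changes were -0.34 and -0.26. Cycs, the mobile carrier cytochrome c, went from 2191 and 2151 to 1665 and 1757, a log2 change of -0.34. For Cycs, 40.0% of the transcript matched 3 other places in the genome. The remaining subunits, Uqcrq and Uqcrc2, had log2 fold changes of -0.26 and -0.24.

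Complex IV, cytochrome c oxidase, reduces oxygen with a catalytic core encoded by mitochondrial DNA, which the nuclear subunits surround. Of its 9 members, 8 were lower and 1 was not called, with a median log2 fold change of -0.33 and a range from -0.46 to -0.04. Its summed value fell by 19.9%, from 47885 and 48323 to 39121 and 37983, against 13.7% to 16.3% for the other complexes. Sums weigh the most abundant genes most. The median member stood at 82.1%, 83.0%, 83.4%, 79.4% and 79.9% of its wild-type value in complexes I to V, so complexes IV and V were close by gene. These differences between complexes were not tested. Cox7a2, a small subunit in the form found in most tissues (ENSMUSG00000032330, chromosome 9, 79603048 to 79607660), had values of 4457 and 4569 in wild-type and of 3292 and 3253 in Bmal1-/-. Its log2 change of -0.46 ± 0.04 (SE, limma adjusted p = 1.4e-08) was called in all 19 settings run.

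Cox5b, a zinc-binding subunit on the matrix side (chromosome 1, 36748332 to 36750230), went from 4171 and 4326 to 3313 and 3026, a log2 change of -0.42 ± 0.05 (SE, limma adjusted p = 2.7e-07). Cox7c, a small membrane subunit (chromosome 13, 86184421 to 86186509), went from 3938 and 3946 to 3039 and 2929, a log2 change of -0.40 ± 0.04 (SE, limma adjusted p = 1.5e-07). Both have near-identical copies in the genome, over 87.8% of the Cox5b transcript at 1 place and over 74.1% of the Cox7c transcript at 3 places. Cox4i1, an early-assembling subunit with the highest value of the complex (chromosome 8, 123192190 to 123198109), had 11707 and 11926 in wild-type and 9666 and 9309 in Bmal1-/-, a log2 change of -0.32 ± 0.04 (SE, limma adjusted p = 8.2e-07).

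Cox5a, another subunit on the matrix side (chromosome 9, 57369039 to 57380231), was the member of complex IV that was not called. It had 3465 and 3309 in wild-type and 3303 and 3268 in Bmal1-/-. Both Bmal1-/- libraries were thus below both wild-type libraries, by less than the wild-type libraries differed from each other. The log2 change was -0.04 ± 0.04 (SE, limma adjusted p = 0.42), it was 0.0168 with equal library totals, and it was 0.12 with the trend over exon length taken out, where it was called higher. Cox7b, Cox6a1, Cox8a and Cox6c had log2 fold changes from -0.34 to -0.26.

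Complex V, the ATP synthase, couples the return of protons to the making of ATP. All 9 members were lower, with a median log2 fold change of -0.32 and a range from -0.49 to -0.13. The summed value went from 131959 and 132975 to 115146 and 113545. The catalytic head had a median of -0.18 (2 genes), the central stalk of -0.41 (3 genes) and the peripheral stalk of -0.31 (4 genes).

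Atp5e, the epsilon subunit of the central stalk (ENSMUSG00000016252, chromosome 2, 174286573 to 174289606), had the largest fall of all members. Its values were 1988 and 2069 in wild-type and 1473 and 1408 in Bmal1-/-, 71.0% of the wild-type mean, with a log2 change of -0.49 ± 0.05 (SE, limma adjusted p = 8.0e-08). It was called in all 19 settings run, and its log2 fold change stayed between -0.53 and -0.36 over them. The 140 bases from -150 to -11 relative to its RefSeq start are shown because this gene fell furthest (mm9 chr2:174289613-174289752, minus strand), with the Ets/Gabp letters that lie there in capitals.
Atp5e: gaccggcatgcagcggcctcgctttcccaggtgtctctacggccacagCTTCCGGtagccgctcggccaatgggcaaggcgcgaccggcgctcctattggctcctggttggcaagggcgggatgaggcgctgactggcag

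Atp5c1, the gamma subunit that turns inside the head (chromosome 2, 9977643 to 10002137), had values of 8288 and 8547 in wild-type and of 6303 and 6382 in Bmal1-/-, a log2 change of -0.41 ± 0.04 (SE, limma adjusted p = 3.2e-08). Atp5d, the delta subunit of the same stalk, went from 4110 and 4098 to 3349 and 3098, a log2 change of -0.35. In the peripheral stalk, which holds the head still, Atp5o, Atp5j, Atp5h and Atp5f1 had log2 fold changes of -0.37, -0.32, -0.30 and -0.27. The last 3 of these have near-identical copies in the genome, over 26.5%, 95.2% and 50.1% of their transcripts.

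Atp5b, the catalytic beta subunit (ENSMUSG00000025393, chromosome 10, 127520329 to 127527447), had the highest value of all members and ranked 14 among all genes in the table. It had 63060 and 63135 in wild-type and 58043 and 56925 in Bmal1-/-, a log2 change of -0.13 ± 0.04 (SE, limma adjusted p = 0.0045). Its groups did not overlap, yet its fold change was the smallest of complex V and turned to 0.0109 with quantile normalization. Atp5a1, the alpha subunit that alternates with beta in the head, went from 34040 and 33726 to 28969 and 29036, a log2 change of -0.22.

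**Figure D2:**
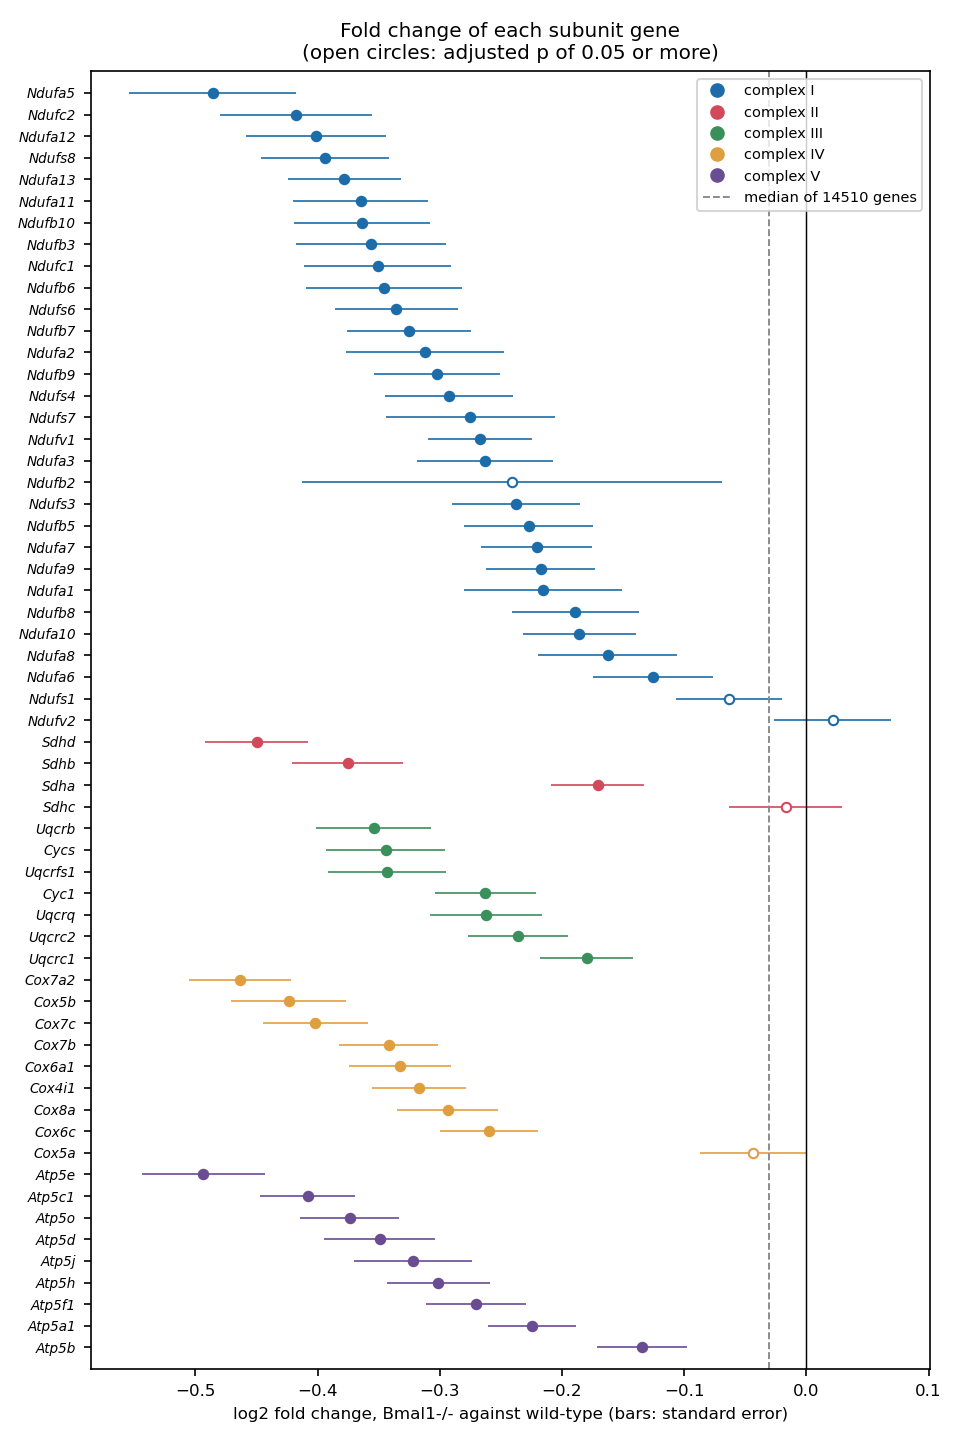
Log2 fold change of each member, Bmal1-/- against wild-type (horizontal axis), with its limma standard error as a bar, coloured by complex. Filled circles mark the 54 members with an adjusted p-value under 0.05, all to the left of 0, open circles the 5 others, and the dashed line the median of all 14510 genes at -0.03.

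Levels differed far more between members than between labels. Compared per kilobase of transcript, using for each gene the shortest annotated transcript with its longest coding sequence, the mean value over the 4 libraries was 31467 for Atp5b, 15688 for Cox4i1 and 12725 for Atp5a1. The medians per kilobase were 1753 for complex I, 2471 for complex II, 4709 for complex III with Cycs, 6553 for complex IV and 5592 for complex V. Inside complex II the level per kilobase ran from 672 for Sdhc to 3143 for Sdhd. Inside complex I it ran from 177 for Ndufb2 and 632 for Ndufa11 to 6321 for Ndufa7, an accessory subunit of the N module. Genes with several transcripts, such as Ndufa11, Sdhc and Cycs, depend here on which transcript is taken.

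**Figure D3:**
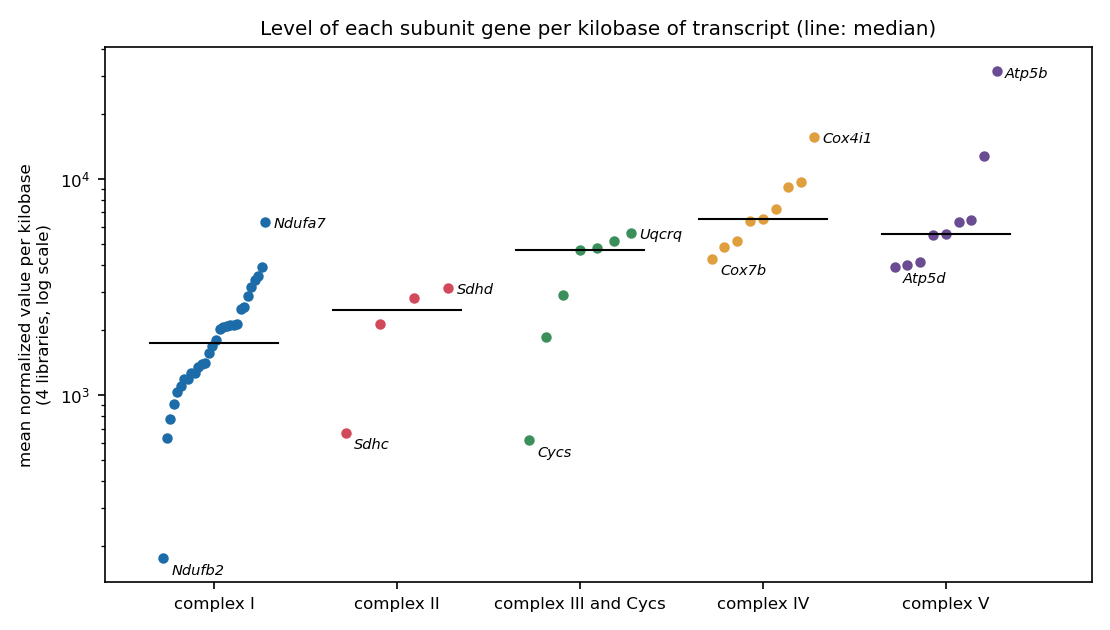
Mean normalized value over the 4 libraries per kilobase of transcript (log axis) for each member, grouped by complex, with a line at the median of each complex. Complex I has the lowest median, 1753, and complex IV the highest, 6553, and Atp5b stands above all other members at 31467.

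The members are short and strongly expressed genes, and fold changes over all genes tested moved with both properties. The median summed exon length was 1489 bases for the members and 3432 bases for all genes tested. Over all genes, the median log2 fold change was -0.12 and -0.16 in the decile with the shortest exons and the next one, and 0.20 in the decile with the longest. Those shortest deciles held 20 and 14 of the members, whose medians in them were -0.33 and -0.32. Of all genes in these deciles, 29.6% and 40.0% were called lower. By level, the median over all genes went from 0.24 in the decile with the lowest values to -0.09 in the decile with the highest. That highest decile held 23 members, with a median of -0.30. Level deciles 7, 8, 9 and 10 held 8, 11, 16 and 23 members. Of all genes in these deciles, 40.5%, 42.3%, 42.0% and 49.3% were called lower. Across the 59 members themselves, the log2 fold change correlated with log2 exon length at 0.27 (Pearson) and with log2 mean value at 0.15, as a description over genes that share the same libraries.

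After a trend over exon length was taken out of each library, 42 members were lower (24.3% of all genes) and 2 were higher, Cox5a and Ndufv2 (23.7% of all genes). The members' median log2 fold change was then -0.17, against -0.0044 for all genes. With cyclic loess, which takes out a trend over the level, 51 members were lower, as were 3612 of all 14510 genes. The members' median was then -0.24, against -0.014 for all genes. The members therefore lay below the median of all genes under these corrections too, by less. What underlies the trends over length and level was not tested.

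**Figure D4:**
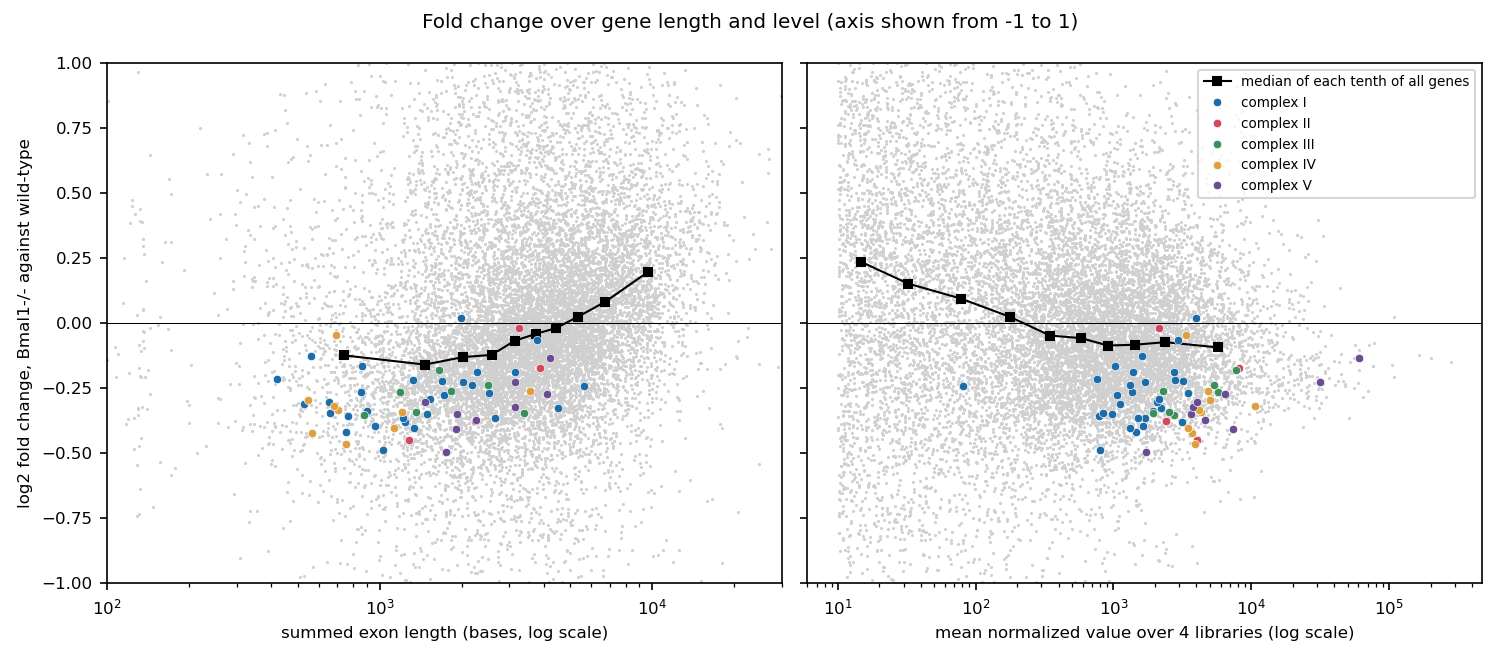
Log2 fold change of every gene tested (grey) and of the members (coloured by complex) over summed exon length (left, log axis) and over mean normalized value (right, log axis), with the vertical axis cut at -1 and 1. Black squares are the medians of deciles of all genes, which run from -0.12 to 0.20 over length and from 0.24 to -0.09 over level, and most members lie below the squares nearest to them.

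The count depended on how the variance was modelled and on the filter. When the variance was not allowed to follow the mean, limma called 39 members lower, and 2515 of all 14510 genes. With no filter on low values, so that 37310 genes were tested, it called 15 members lower, and 1061 of all genes. The members' median log2 fold change was -0.30 in both. Over all genes tested, 3488 were higher and 4151 lower with the authors' scaling and 4203 were higher and 3193 lower with equal library totals, which moved the median of all genes to 0.03. With equal library totals 51 members were lower and the members' median was -0.24.

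Nuclear subunits outside the 59 moved in the same direction. In a list of 18 further nuclear subunit genes, 18 were lower, with a median log2 fold change of -0.37. The largest fall was that of Uqcrh, the hinge protein of complex III, with values of 4344 and 4610 in wild-type and of 3036 and 3041 in Bmal1-/-, a log2 change of -0.56 ± 0.04 (SE, limma adjusted p = 1.6e-09). Ndufb4, of the complex I membrane arm, and Atp5k, the e subunit of ATP synthase, followed with log2 fold changes of -0.46 and -0.43. The smallest falls were those of Atp5g1, which encodes the ring subunit c, at -0.21, Uqcr10 of complex III at -0.22, and Ndufab1, the mitochondrial acyl carrier protein, at -0.26. A list named tissue isoforms held 10 genes, most of them typical of other tissues, and 5 passed the filter. Of these only Cox7a2l was lower (-0.31), which takes part in joining complexes III and IV rather than marking another tissue. Its mean value of 2269 was the highest of the list.

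Assembly factors build the complexes without being part of the finished enzyme. Of 46, 44 passed the filter, and of these 26 were lower and 1 was higher, with a median log2 fold change of -0.23. For complex I, 10 of 14 were lower, led by Ndufaf2 (-0.54), Ecsit (-0.36) and Ndufaf3 (-0.35), with the smallest falls in Ndufaf4 (-0.17) and Tmem126b (-0.19). Acad9, which acts both in complex I assembly and as an acyl-CoA dehydrogenase, stood at 1372 and 1352 in wild-type and was higher at 1556 and 1591 in Bmal1-/- (log2 change 0.21, limma adjusted p = 0.0018). For complex II, Sdhaf4, Sdhaf3 and Sdhaf2 had log2 fold changes of -0.63, -0.32 and -0.17. For complex III, Lyrm7, Uqcc2 and Uqcc1 had -0.49, -0.45 and -0.34.

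For complex IV, 8 of the 16 assembly factors that passed the filter were lower. The lowest were Cox14 (-0.50), Surf1 (-0.41) and Cox19 (-0.41), and the called genes with the smallest falls were Sco1 (-0.21), Coa7 (-0.22) and Coa3 (-0.27). For complex V, Atpif1, an inhibitor of ATP synthase, and Atpaf2, a chaperone of its head, had -0.43 and -0.29. The 2 other factors, Atpaf1 and Tmem70, had 0.01 and -0.01 and were not called.

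Of the 13 subunit genes of mitochondrial DNA, 7 passed the filter and 5 of these were lower, with a median log2 fold change of -0.16. The lowest was mt-Nd6, with values of 7928 and 10764 in wild-type and of 7104 and 6117 in Bmal1-/-, a log2 fold change of -0.49 (adjusted p = 8.0e-05, limma), and the most abundant was mt-Co1, with 195283 and 229876 in wild-type and 193799 and 192052 in Bmal1-/- (-0.14, adjusted p = 0.041, limma). The wild-type libraries of both genes lay well apart, and mt-Co1 in wild-type replicate 1 lay close to the Bmal1-/- values. The other 6, mt-Nd3, mt-Nd4l, mt-Co2, mt-Co3, mt-Atp6 and mt-Atp8, had 3 reads or fewer in every library. Between 99.1% and 100% of each of these 6 transcripts matched a place in the nuclear genome at 98% identity or more, and how the authors' alignment treated reads with more than 1 place is not given in the sources used here. Of the 7 that passed, mt-Nd4 matched over 63.6%, mt-Co1 over 31.3% and the others over 0%.

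Regulators of respiratory genes were called less uniformly, with 2 lower and 1 higher. Of 12, 11 passed the filter, with a median log2 fold change of -0.07. Tfam, which packages and transcribes mitochondrial DNA, went from 2181 and 2239 to 1670 and 1900 (-0.31, adjusted p = 8.9e-05, limma), and Tfb1m, a methyltransferase of the mitochondrial ribosomal RNA, had -0.31. Gabpa, the DNA-binding subunit of the factor also called Nrf2 in this field, rose from 3609 and 3296 to 3775 and 4016 (0.17, adjusted p = 0.0048, limma). Nrf1 and Yy1 had log2 fold changes of -0.07 and 0.08 and were not called, and Ppargc1a had 1 read or fewer in every library.

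The genes for both kinds of ribosome were examined beside the members. Among cytosolic ribosomal protein genes, 76 of 78 were lower, with a median log2 fold change of -0.24. Among mitochondrial ribosomal protein genes, 70 of 75 were lower and 1 was higher, with a median of -0.29. Enzymes of the tricarboxylic acid cycle, which are encoded by longer genes (median exon length 3110 bases), had 6 of 14 lower and 2 higher, with a median of -0.10. The 2 that rose were Sucla2 (0.36) and Suclg2 (0.29), both subunits of succinyl-CoA synthetase, while their partner Suclg1 fell (-0.25). No test of 1 list against another was made.

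**Figure D5:**
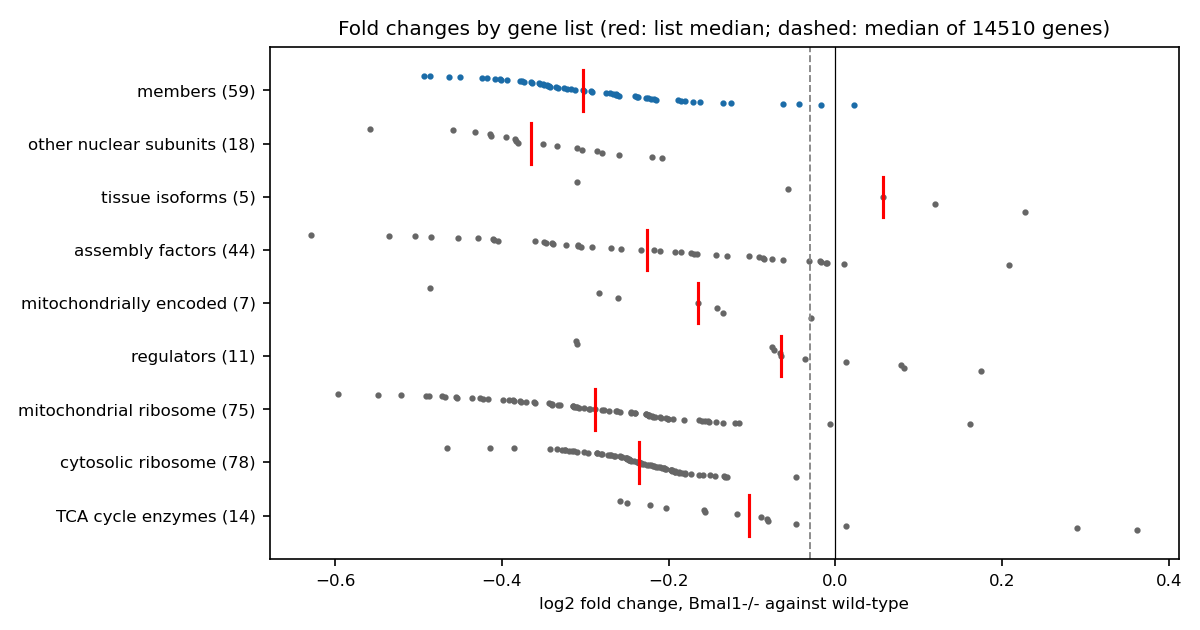
Log2 fold change, Bmal1-/- against wild-type (horizontal axis), of each gene that passed the filter, by list, with the number of genes in brackets, a red line at each list's median and a dashed line at the median of all genes. The medians are -0.30 for the members, -0.37 for the other nuclear subunits, -0.29 for mitochondrial ribosomal proteins, -0.24 for cytosolic ribosomal proteins, -0.16 for subunits of mitochondrial DNA, -0.10 for tricarboxylic acid cycle enzymes and 0.06 for tissue isoforms.

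The promoters of the members were read for the letters of factors known for respiratory genes. RefSeq promoter windows, from 250 bases before to 50 bases after the start, were matched for 48 of the 59 members, and each window was found once in mm9. The letters CACGTG, the E-box that Bmal1 and Clock can bind, were in 3 of the 48 windows (6.25%) and in 7.24% of 27025 windows of all genes. The letters GCATGCGC of Nrf1 were in 7 windows (14.6%, against 2.80% of all), CCGGAAG of the Ets family, which Gabpa belongs to, in 10 (20.8%, against 9.12%), and AAGATGGCG of Yy1 in 5 (10.4%, against 1.49%). Both strands were searched, and the motifs share no letters with each other in these windows except where a GCGCATGCGC run holds the Nrf1 letters on both strands. In all, 23 windows held at least 1 of the motifs and 25 held none. The windows were the first listed for each gene. Those of all genes were not limited to expressed genes, so the shares are not matched for expression. A match describes the letters and not a bound site.

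The 3 E-box matches are shown first, since this is the sequence of the targeted factor, each in 30 bases on the gene's strand with the E-box in capitals. Their first bases are at -249, -72 and -169 from the start of Atp5f1 (mm9 chr3:105762402-105762431), Ndufa7 (chr17:33961433-33961462) and Ndufv1 (chr19:4012907-4012936). These genes had log2 fold changes of -0.27, -0.22 and -0.27, inside the range of the members without an E-box.
Atp5f1: aCACGTGgtgtacctctgcgcaaccgcccc
Ndufa7: gcggagaggagtCACGTGagcaggggatgc
Ndufv1: agcagagggcgaCACGTGagcctggtttac

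For the Nrf1 letters, Cycs (chr6:50516610-50516639), Ndufa6 (chr15:82184786-82184815) and Sdhb (chr4:140517121-140517150) are shown because they come from 3 complexes and differ in their fall. Their matches begin at -60, -83 and -54 from the start, and their log2 fold changes were -0.34, -0.13 and -0.38.
Cycs: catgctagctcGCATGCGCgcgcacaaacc
Ndufa6: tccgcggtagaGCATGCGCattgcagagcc
Sdhb: aagcccagtggGCATGCGCcctacgggccg

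For the Ets letters, Sdhd (chr9:50411982-50412011) and Cox6a1 (chr5:115798965-115798994) are shown beside Atp5e above. In Atp5e, Sdhd and Cox6a1 the capitals are the letters read on the opposite strand, and they begin at -102, -46 and -16 from the start.
Sdhd: ccgtctcctgcCTTCCGGttcacgcttcag
Cox6a1: ccccatttccgCTTCCGGcgcgccggtgta

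The Yy1 letters all lay just after the start of complex I genes, between 23 and 36 bases from it. In all 5 genes the ATG inside the letters is the start codon of an annotated transcript, so the match overlaps the beginning of the coding sequence. Shown are Ndufc1 (chr3:51212836-51212865), Ndufs6 (chr13:73465881-73465910) and Ndufs7 (chr10:79712208-79712237), with log2 fold changes of -0.35, -0.34 and -0.28.
Ndufc1: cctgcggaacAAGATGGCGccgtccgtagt
Ndufs6: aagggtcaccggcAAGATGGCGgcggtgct
Ndufs7: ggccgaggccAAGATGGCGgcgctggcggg

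Near-identical copies elsewhere in the genome can share reads with a gene. Among the members, 9 had a stretch of at least 150 bases elsewhere in the genome at 98% identity or more, and 6 of these had it over at least 50% of the transcript. All 9 were lower, with a median log2 fold change of -0.34. Of the 50 members without such a copy, 45 were lower, with a median of -0.29. The share of reads that the authors' alignment gave to copies is unknown, so in this respect single values of the 9 genes are less certain than those of the 50. Reads can also be shared where exons of another gene on the same strand overlap. Such exons covered 12.7% of the exon bases of Atp5o, 4.26% of Ndufb8 and 2.58% of Ndufb2, which are among the 50. The part of this overlap in their values was not tested.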

How the data were processed

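Poly(A) RNA of 2 wild-type and 2 Bmal1-/- libraries was sequenced with stranded 75-bp paired reads. According to the submitters' processing notes, bcl2fastq 2.18.0.12, cutadapt 1.9.1 and STAR 2.5.2b were used with mouse build mm9. The counting tool is not given in the sources used here. The deposited signal values are gene counts that the authors scaled with TMM (NOISeq). All 4 columns divided into whole reads (100% of values within 0.01 of a whole number), which gave the depths.

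Genes whose values averaged 10 or more were tested on log2(value + 1) with limma 3.58.1 (intensity trend, 2-sided, Benjamini-Hochberg) in R 4.3.3, because the values are normalized. edgeR 4.0.16 and DESeq2 1.42.0 on whole reads were alternatives, beside other filters, pseudocounts, scalings, a loess on exon length, a replicate block and leaving out each library. Copies were sought with blastn 2.17.0+ (98% identity, 150 bases). Promoter windows came from RefSeq (GRCm38.p6) and were placed in mm9 by exact match.

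Members and lists were chosen with earlier results of these data known. Given in full were the 12 called members with the largest change, the highest and lowest fold change and the highest value in each complex, and the extreme called genes of the lists of subunits, assembly factors and regulators. The study describes the 2 libraries of each label as biological replicates. Both come from 1 line, so p-values measure the spread between replicates of that line and not between clones. That spread was largely pooled over genes by the limma trend (18.1 prior degrees of freedom), and is not each gene's own alone.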

Additional observations from a re-analysis of the deposited data

How the results depend on the processing

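The median log2 fold change of the members, -0.30, was -0.24 with equal library totals, -0.26 with quantile normalization, -0.24 with cyclic loess, -0.17 with the loess on exon length and -0.27 with DESeq2, and it ran from -0.33 to -0.27 when 1 library was left out. The count of lower members, 54, was 15 with no filter, where 1161 genes were higher and 1061 lower of 37310. It was 39 without the variance trend (2545 genes higher and 2515 lower of all). The count of higher members was 0 in all settings but the loess on exon length, where it was 2, and was 0 to 0 when 1 library was left out, with 1 member higher at an unadjusted p under 0.05 without wild-type replicate 2. No member passed 2-fold in any setting (0 to 0). On the whole reads of all genes, edgeR called 3818 higher and 3864 lower, and 53 members lower; DESeq2 called 2690 and 2536, and 50 members. The cause of these shifts was not tested.

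The sign turned for Atp5b with quantile normalization (0.0109), for Ndufa6 (0.0263) and Ndufa8 (0.00953) with the loess on exon length, and for Ndufv2 without wild-type replicate 1 (-0.0566, with a range up to 0.100 when 1 library was left out). It turned for Cox5a with equal library totals (0.0168), cyclic loess (0.0164) and the loess on exon length (0.12). It turned for Sdhc with equal library totals (0.0435), quantile normalization (0.0259), cyclic loess (0.0416), the loess on exon length (0.0451), edgeR (0.00746) and DESeq2 (0.0144).

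With the replicate number as a block, 54 members were lower, as were 4332 of all 14510 genes, and the members' median was -0.30. The deviations of same-numbered libraries correlated at -0.02 over 14510 genes, and the block changed no call of a member. This correlation cannot exclude a shared day or batch of small effect, and the labels give only the number, so pairing stays unknown. With 2 libraries a label, 1 clone and counting error at low values as for Ndufb2, small differences such as that of Sdhc could not be resolved.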
